A study of Homo sapiens with 16 samples.

Results

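The 35 genes described here are regulators and direct targets of the transcription factor p53, taken as a list of known genes and matched by symbol to the Ensembl identifiers of the count table. They are 35 of the 60649 genes counted, and 34 of them were among the 19103 genes with enough counts to be tested. The only member that could not be tested was TNFRSF6B. The cells were ASC52telo, a line of mesenchymal stem cells (MSCs) from adipose tissue made immortal with telomerase (hTERT), which all 4 groups shared, so that the data hold 1 cell line. Mitomycin C (MmC), an agent that alkylates and crosslinks DNA, was used to make the cells senescent. The 4 groups, with 4 libraries each, were young MSCs without either agent (MmC-/GDF11-), young MSCs given 10 ng/mL of the cytokine growth differentiation factor 11 (MmC-/GDF11+), senescent MSCs exposed to 1.5 µg/mL MmC for 18 h (MmC+/GDF11-), and senescent MSCs given both (MmC+/GDF11+). GDF11 was supplied over the 10 days that followed the MmC exposure, and the cells of every group were collected after those 10 days.

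In cells without damage the ubiquitin ligase MDM2 and its relative MDM4 keep p53 low and inactive. DNA breaks and crosslinks, such as those made by MmC, activate the kinases ATM and ATR, which free p53 from MDM2. p53 then binds response elements near its target genes and raises their transcription. Among the products are proteins that halt the cell cycle, repair DNA, act at mitochondria and in cell death, restrain growth signalling, and, as with MDM2 and the phosphatase PPM1D, switch p53 off again. Prolonged p53 activity is one known route to senescence, the durable arrest of the cell cycle, in MSCs as in other dividing cells.

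The DNA that p53 recognises is shown first because 12 of the 35 members (34.3%) carry a match close to their start. The window searched ran 2500 bases to either side of the start of the canonical transcript (hg38). The motif was the 20-base p53 response-element consensus, made of 2 adjacent half-sites of 10 bases without a spacer, with at most 2 mismatches and none in the 4 central bases of a half-site. The consensus reads the same on both strands, and no other motif was searched. A match was found in 452 of 20007 protein-coding genes (2.26%). Genes are often listed as p53 targets because of such elements, so the share among members is a description and not independent of the list. The 10 matches below are written 5′ to 3′ on the strand of the gene, with the 4 central bases of each half-site in capitals. The matches of RRM2B and TNFRSF10B, in introns, are named only.
ZMAT3, intron, chr3:179070188-179070207, minus strand: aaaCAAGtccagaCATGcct
PLK2, upstream, chr5:58462274-58462293, minus strand: aaaCATGcctggaCTTGccc
GADD45A, intron, chr1:67686775-67686794, plus strand: gaaCATGtctaagCATGctg
CCNG1, intron, chr5:163437926-163437945, plus strand: gcaCAAGcccaggCTAGtcc
GDF15, upstream, chr19:18385308-18385327, plus strand: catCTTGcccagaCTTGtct
FAS, intron, chr10:88991309-88991328, plus strand: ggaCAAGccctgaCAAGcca
SPATA18, intron, chr4:52051957-52051976, plus strand: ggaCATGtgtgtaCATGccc
EDA2R, intron, chrX:66638563-66638582, minus strand: gggCAAGtcagggCTTGtgt
AEN, upstream, chr15:88621306-88621325, plus strand: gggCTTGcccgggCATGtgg
BTG2, upstream, chr1:203303642-203303661, plus strand: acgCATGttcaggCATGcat
ZMAT3 and PLK2 matched without a mismatch, as did 13 of the 20007 genes in all (0.065%). GADD45A, CCNG1 and RRM2B had 1 mismatch. The closest to the start was the match of AEN, at -24 bases, and the farthest of those printed was that of PLK2, at -2198 bases, where negative distances lie upstream. CCNG1 held another match, with 2 mismatches, also in intronic sequence. The labels upstream and intron refer to the canonical transcript. The GDF15 match, at -840 bases from the start of that transcript, lies within the whole span of the gene given below.

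Poly(A) RNA was sequenced, and the authors deposited raw read counts per gene, with 71275337 to 144204979 counts per library. Levels are given as CPM, the counts scaled to the library's total after TMM scaling of the libraries, in the order of replicates 1 to 4. Differences between groups are log2 fold changes ± their standard error from edgeR's quasi-likelihood test over all 16 libraries, with p-values adjusted over the 19103 genes by the Benjamini-Hochberg method. A gene is said to have risen or fallen where its adjusted p was under 0.05. The study calls the 4 libraries of a group biological replicates of 1 line, so the p-values measure the spread between cultures and not between donors. Of the 6 genes listed as present on MSCs, none was at 0 in any group, and their summed level lay between 5090 and 6698 CPM per library. The sum does not show their separate changes: 2 rose and 1 fell with MmC without GDF11, and 3 rose and 1 fell with it. In each comparison 3 of the 6 had a log2 fold change above 0. PDGFRB was at 328.5 to 452 CPM without MmC and 186 to 287 CPM with it, and THY1 at 874 to 1429 CPM and 546 to 1257 CPM. The 15 markers of blood, endothelial, epithelial, macrophage and adipocyte cells summed to 55.4 to 83.9 CPM in the MmC- libraries and 44.02 to 53.5 CPM in the MmC+ libraries. HLA-DRA, an antigen-presenting molecule of blood cells that also has copies on alternate contigs of the assembly, was at 0 in every library. The epithelial keratin gene KRT18 was at 36.5 to 58.0 CPM without MmC, 55.1% to 70.4% of that sum, and at 8.83 to 20.3 CPM with it, the smaller part of the sum in every MmC+ library. Of the 15 markers 11 were tested, and 4 rose and 2 fell with MmC without GDF11 while 6 rose and 2 fell with it. Of all genes tested, 22.9% rose and 22.4% fell without GDF11, and 23.4% rose and 23.3% fell with it. Of the 3 blood markers tested, 1 rose without GDF11 and 2 rose with it. Of the 3 endothelial markers PECAM1 and VWF rose and CDH5 fell in both comparisons. PECAM1 stood at 4.89 to 7.56 CPM in the MmC- libraries and at 13.9 to 19.7 CPM in replicates 2 to 4 of the MmC+ groups, but at 5.57 to 5.87 CPM in their replicate 1. The macrophage marker CD68 (0.0671 to 0.238 CPM without MmC and 0.182 to 0.416 CPM with it) also rose in both, although 81.6% of its exons overlap another gene of that strand, and the adipocyte marker PLIN1 (0.0134 to 0.105 CPM and 0.122 to 0.320 CPM) rose with GDF11. The part of these markers in the results was not tested. In 23 of the 34 tested p53 genes (67.6%) replicate 1 was the highest library in at least 3 of the 4 groups. The share of all genes tested was 19.1%. Results that rest on replicate 1 are given with and without it.

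The first comparison asked which of the p53 genes differed between senescent and young MSCs. Without GDF11, 28 of the 34 tested members rose with MmC, 1 fell, and 5 did not pass the test. Of all genes tested, 22.9% rose and 22.4% fell (45.3% in either direction), so the share of members that rose was far above the background and the share that fell far below it. The median log2 fold change was 1.32 over the members and -0.01 over all genes. In 26 members every MmC+/GDF11- library lay above every MmC-/GDF11- library, against 19.1% of all genes, and in 1 member all lay below, against 18.2% of all genes. With GDF11 in both groups, 28 members rose, 1 fell and 5 did not pass the test, where 23.4% of all genes rose and 23.3% fell (46.7% in either direction). The median there was 1.31, and 27 members were higher and 1 was lower without overlap, against 20.2% and 21.2% of all genes. The genes were the same in both comparisons: 28 rose in both, TP53I3 fell in both, and MDM4, POLH, PLK2, CCNG1 and TRIAP1 passed in neither. The comparisons share no library, but they come from the same fit with a shared estimate of the spread. Deviations of same-numbered libraries with and without GDF11 were also correlated, at 0.448 to 0.818 in senescent and 0.0982 to 0.5035 in young MSCs. The match between the comparisons is therefore not an independent repeat. Without replicate 1 in any group, 29 members rose and 2 fell in each comparison, with CCNG1 added to the first count and PLK2 to the second. In bulk RNA, a change in the share of cells that use a gene and a change in RNA per cell cannot be told apart.

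**Figure D1:**
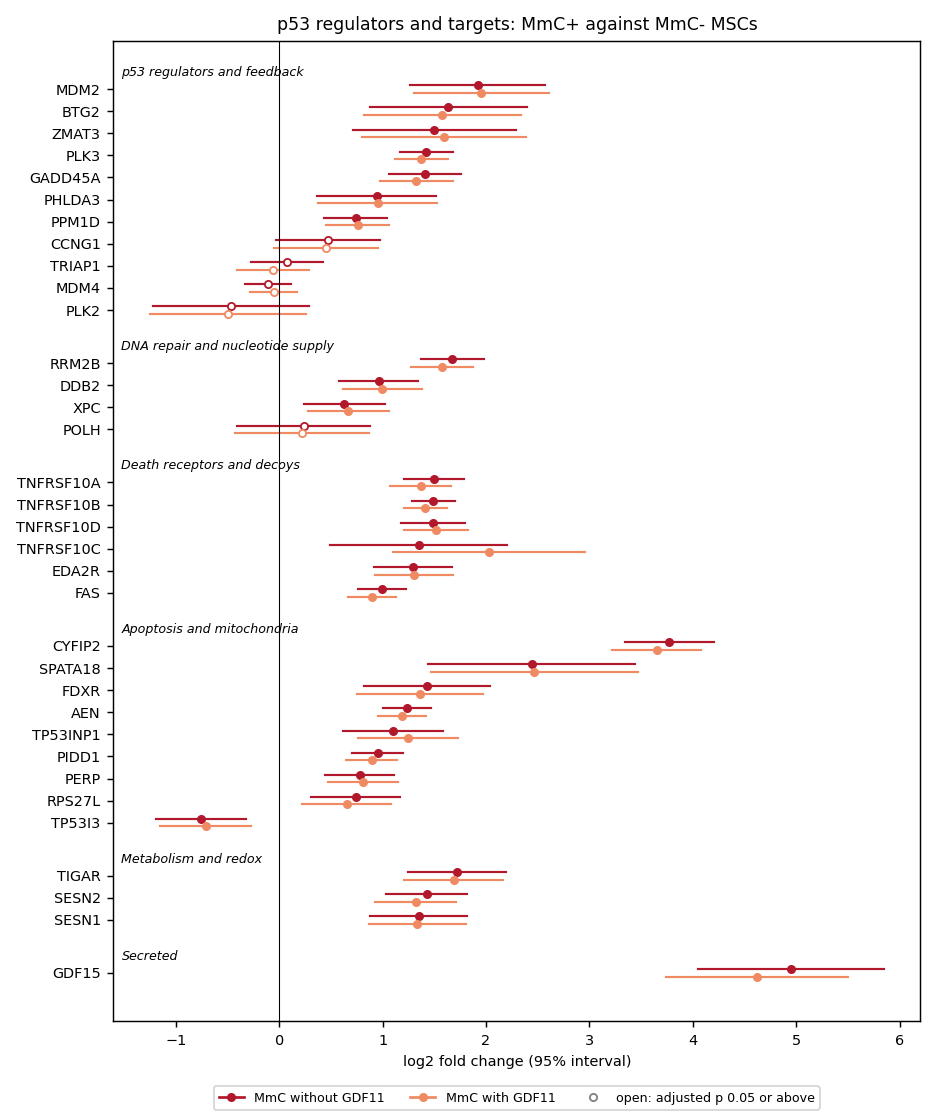
log2 fold change of MmC+ against MmC- libraries (horizontal axis) for each of the 34 tested p53 genes, grouped by role, without and with GDF11. Points are the fitted values, bars their 95% intervals, and filled points have an adjusted p under 0.05. GDF15 lies farthest to the right at 4.95 and 4.62, and TP53I3 is the only filled point below 0, at -0.76 and -0.71.

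Of the 11 genes that regulate p53 or carry its arrest and feedback signals, 7 rose with MmC in both comparisons and none fell. MDM2 (ENSG00000135679.26, chromosome 12, 68808177 to 68845544, plus strand of hg38 as are all positions given here), the ubiquitin ligase that marks p53 for degradation and is itself a target, had 63.7, 36.1, 40.1 and 38.9 CPM in young MSCs without and 66.9, 40.2, 35.9 and 33.8 CPM with GDF11, and 252, 153, 157 and 114 CPM in senescent MSCs without and 258, 169, 147 and 111 CPM with GDF11. Its level rose by 1.92 ± 0.31 without GDF11 and 1.96 ± 0.31 with it (adjusted p = 0.000153 and 0.000132). Every library with MmC lay above every library without it, and replicate 1 was the highest of its group in all 4 groups. Of the exonic sequence of MDM2, 14.7% lies in other genes on either strand and 5.29% in a gene on the same strand. MDM4 (ENSG00000198625.13, chromosome 1, 204516379 to 204558120, plus strand), which binds p53 and blocks its activity, had 17.8, 12.6, 14.2 and 12.4 CPM in young MSCs without and 14.2, 14.2, 13.8 and 11.8 CPM with GDF11, and 13.7, 12.7, 12.9 and 13.6 CPM in senescent MSCs without and 13.1, 12.7, 12.9 and 13.4 CPM with GDF11. The groups overlapped, with log2 fold changes of -0.11 ± 0.11 without GDF11 and -0.05 ± 0.11 with it (adjusted p = 0.436 and 0.727).

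ZMAT3 (ENSG00000172667.11, chromosome 3, 178960121 to 179072215, minus strand), an RNA-binding zinc finger protein whose intronic match had no mismatch, had 75.1, 31.7, 35.3 and 30.6 CPM in young MSCs without and 65.2, 35.2, 32.4 and 28.04 CPM with GDF11, and 194, 106, 105 and 84.1 CPM in senescent MSCs without and 188, 116, 101 and 80.5 CPM with GDF11. It rose by 1.50 ± 0.37 without GDF11 and 1.59 ± 0.37 with it (adjusted p = 0.00409 and 0.00269). BTG2 (ENSG00000159388.6, chromosome 1, 203305491 to 203309602, plus strand), an antiproliferative protein that acts on mRNA decay, had 12.2, 5.16, 5.06 and 6.91 CPM in young MSCs without and 11.5, 5.43, 6.12 and 6.68 CPM with GDF11, and 36.3, 19.5, 16.6 and 18.5 CPM in senescent MSCs without and 35.1, 19.97, 15.5 and 18.4 CPM with GDF11. It rose by 1.63 ± 0.36 without GDF11 and 1.58 ± 0.36 with it (adjusted p = 0.00174 and 0.00215). In both genes replicate 1 was the highest of every group, and the groups with and without MmC were separate. GADD45A (ENSG00000116717.13, chromosome 1, 67685201 to 67688334, plus strand), a stress sensor that binds cell cycle and repair proteins, had 57.1, 58.5, 56.9 and 40.7 CPM in young MSCs without and 59.7, 67.5, 49.3 and 44.6 CPM with GDF11, and 172, 139.8, 122 and 133 CPM in senescent MSCs without and 178, 133, 116 and 129 CPM with GDF11. Its log2 fold changes were 1.41 ± 0.16 without GDF11 and 1.33 ± 0.16 with it (adjusted p = 6.72e-06 and 1.17e-05). The lowest MmC+ library of GADD45A stood at 115.7 CPM and the highest MmC- library at 67.5 CPM.

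PLK3 (ENSG00000173846.13, chromosome 1, 44800377 to 44805990, plus strand), a polo-like kinase active in the stress response, had 16.1, 14.9, 11.3 and 13.1 CPM in young MSCs without and 15.6, 14.2, 11.9 and 13.3 CPM with GDF11, and 37.9, 42.1, 36.96 and 31.6 CPM in senescent MSCs without and 37.5, 36.98, 37.1 and 31.1 CPM with GDF11. The rise was 1.42 ± 0.12 without GDF11 and 1.38 ± 0.12 with it (adjusted p = 3.68e-07 and 5.31e-07). PPM1D (ENSG00000170836.12, chromosome 17, 60600193 to 60666280, plus strand), the phosphatase that removes activating phosphates from p53 and ATM, had 14.8, 10.6, 10.97 and 12.8 CPM in young MSCs without and 15.2, 10.8, 9.97 and 11.8 CPM with GDF11, and 23.99, 19.98, 18.9 and 19.01 CPM in senescent MSCs without and 23.6, 19.4, 20.2 and 17.7 CPM with GDF11. It rose by 0.74 ± 0.14 without GDF11 and 0.76 ± 0.14 with it (adjusted p = 0.000606 and 0.000487). PHLDA3 (ENSG00000174307.7, chromosome 1, 201464278 to 201469237, minus strand), which competes with the kinase AKT for membrane lipids, had 131, 89.7, 80.4 and 77.1 CPM in young MSCs without and 122, 104, 83.6 and 63.8 CPM with GDF11, and 250.4, 199, 150.3 and 128 CPM in senescent MSCs without and 267, 183, 145 and 129 CPM with GDF11. It rose by 0.94 ± 0.27 without GDF11 and 0.95 ± 0.27 with it (adjusted p = 0.0102 and 0.00936), but replicate 1 of MmC-/GDF11- (130.7 CPM) was above replicate 4 of MmC+/GDF11- (127.5 CPM), and the call without GDF11 was lost when replicate 2 was left out of every group (adjusted p = 0.0831). Its counts are uncertain, since 18.4% of its exons overlap another gene of that strand.

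The other 4 regulators did not pass. PLK2 (ENSG00000145632.15, chromosome 5, 58453982 to 58460139, minus strand), a polo-like kinase with an upstream match free of mismatches, had 126, 154, 148 and 96.1 CPM in young MSCs without and 143, 140.5, 133 and 115 CPM with GDF11, and 178, 60.1, 70.7 and 70.2 CPM in senescent MSCs without and 173, 75.9, 61.9 and 65.3 CPM with GDF11. Its log2 fold changes were -0.47 ± 0.35 without GDF11 and -0.50 ± 0.35 with it (adjusted p = 0.298 and 0.266). In both MmC+ groups replicate 1 lay above all MmC- libraries while the other 3 lay below all of them, and no call was made. Without replicate 1 in any group PLK2 fell by 0.98 without GDF11 and by 0.93 with it (adjusted p = 0.000103 and 0.000165). CCNG1 (ENSG00000113328.19, chromosome 5, 163437569 to 163446151, plus strand), cyclin G1, which brings a phosphatase to MDM2, had 190.1, 143, 150.3 and 135 CPM in young MSCs without and 190.2, 158, 158 and 136 CPM with GDF11, and 327, 184, 186 and 159 CPM in senescent MSCs without and 334, 205, 179 and 160.2 CPM with GDF11. Its log2 fold changes were 0.47 ± 0.24 without GDF11 and 0.45 ± 0.24 with it (adjusted p = 0.118 and 0.131). Without replicate 1 in any group it rose by 0.31 and 0.27 (adjusted p = 0.0282 and 0.0490), and with the replicate number as a block it rose by 0.42 and 0.40 (adjusted p = 0.00248 and 0.00360). TRIAP1 (ENSG00000170855.4, chromosome 12, 120443964 to 120446384, minus strand), a small mitochondrial protein that restrains apoptosis, ranged over 20.03 to 30.8 CPM in young MSCs without and 21.8 to 31.6 CPM with GDF11, and 23.2 to 32.1 CPM in senescent MSCs without and 22.4 to 35.4 CPM with GDF11, with log2 fold changes of 0.08 ± 0.16 without GDF11 and -0.06 ± 0.16 with it (adjusted p = 0.73 and 0.784).

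Of the 4 genes of DNA repair and nucleotide supply, 3 rose in both comparisons. RRM2B (ENSG00000048392.12, chromosome 8, 102204502 to 102238961, minus strand), the subunit of ribonucleotide reductase that supplies nucleotides outside S phase, had 44.8, 33.01, 41.9 and 40.04 CPM in young MSCs without and 49.4, 41.0, 42.1 and 39.7 CPM with GDF11, and 154, 114, 135 and 108 CPM in senescent MSCs without and 156, 125, 131 and 101 CPM with GDF11. It rose by 1.68 ± 0.14 without GDF11 and 1.57 ± 0.14 with it (adjusted p = 3.66e-07 and 6.59e-07). DDB2 (ENSG00000134574.12, chromosome 11, 47214465 to 47239217, plus strand), which finds ultraviolet lesions for nucleotide excision repair, had 34.04, 30.9, 25.4 and 27.2 CPM in young MSCs without and 35.9, 25.4, 28.2 and 25.3 CPM with GDF11, and 74.2, 56.3, 55.95 and 42.8 CPM in senescent MSCs without and 74.99, 58.9, 52.1 and 42.96 CPM with GDF11. It rose by 0.96 ± 0.18 without GDF11 and 1.00 ± 0.18 with it (adjusted p = 0.000477 and 0.000362). Both genes were separate between MmC- and MmC+ libraries. XPC (ENSG00000154767.15, chromosome 3, 14145147 to 14178621, minus strand), the damage sensor of global nucleotide excision repair, had 104, 72.3, 68.7 and 65.03 CPM in young MSCs without and 86.5, 74.2, 65.4 and 68.4 CPM with GDF11, and 162, 109.7, 107 and 100.4 CPM in senescent MSCs without and 157, 102, 104 and 105 CPM with GDF11. It rose by 0.63 ± 0.19 without GDF11 and 0.67 ± 0.19 with it (adjusted p = 0.0111 and 0.00775), and without GDF11 replicate 1 of the young group (103.7 CPM) was above replicate 4 of the senescent group (100.4 CPM). The XPC call without GDF11 was lost when replicate 2 or replicate 3 was left out of every group (adjusted p = 0.0653 and 0.0594), and 24.6% of its exonic sequence lies in other genes on either strand. POLH (ENSG00000170734.12, chromosome 6, 43576185 to 43620523, plus strand), the polymerase that copies past lesions, had 77.98, 56.8, 52.4 and 54.05 CPM in young MSCs without and 78.7, 53.6, 52.6 and 52.4 CPM with GDF11, and 122, 56.4, 55.5 and 50.2 CPM in senescent MSCs without and 115, 59.9, 53.7 and 48.1 CPM with GDF11. Its log2 fold changes, 0.24 ± 0.30 without GDF11 and 0.22 ± 0.30 with it (adjusted p = 0.555 and 0.578), did not pass. The MmC+ level of POLH was highest in replicate 1, where the log2 ratio of MmC+/GDF11- to MmC-/GDF11- was 0.65, and between -0.11 and 0.08 in the other 3.

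All 6 tested genes of the death receptors and their decoys rose in both comparisons. TNFRSF10B (ENSG00000120889.13, chromosome 8, 23020133 to 23069031, minus strand), a receptor for the death ligand TRAIL, had 83.7, 75.3, 76.95 and 79.3 CPM in young MSCs without and 92.95, 79.7, 73.0 and 75.6 CPM with GDF11, and 248, 216, 218 and 204 CPM in senescent MSCs without and 242, 215, 209 and 190.0 CPM with GDF11. The rise was 1.49 ± 0.098 without GDF11 and 1.41 ± 0.098 with it (adjusted p = 2.65e-08 and 4.76e-08). The other TRAIL death receptor, TNFRSF10A (ENSG00000104689.10, chromosome 8, 23190452 to 23225102, minus strand), had 3.30, 3.08, 2.81 and 3.21 CPM in young MSCs without and 3.22, 3.18, 2.697 and 3.53 CPM with GDF11, and 10.01, 9.11, 8.74 and 7.16 CPM in senescent MSCs without and 8.98, 9.16, 8.05 and 6.42 CPM with GDF11, and rose by 1.50 ± 0.14 without GDF11 and 1.37 ± 0.14 with it (adjusted p = 6.72e-07 and 1.66e-06). TNFRSF10D (ENSG00000173530.6, chromosome 8, 23135588 to 23164027, minus strand), a decoy that binds TRAIL but cannot signal death in full, had 17.98, 25.5, 25.7 and 19.6 CPM in young MSCs without and 17.01, 23.2, 20.8 and 23.1 CPM with GDF11, and 71.3, 64.2, 58.3 and 55.3 CPM in senescent MSCs without and 67.2, 59.4, 65.7 and 47.6 CPM with GDF11. It rose by 1.49 ± 0.15 without GDF11 and 1.51 ± 0.15 with it (adjusted p = 1.19e-06 and 1.12e-06). Replicate 1 of TNFRSF10D was the lowest in both MmC- groups and the highest in both MmC+ groups. In all 3 genes the MmC+ libraries lay above the MmC- libraries without overlap. Of the exonic sequence of TNFRSF10A, 16.7% lies in other genes on either strand.

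TNFRSF10C (ENSG00000173535.15, chromosome 8, 23102921 to 23117445, plus strand), the membrane-anchored TRAIL decoy, was scarce, with 1 to 38 counts per library. It had 0.221, 0.0932, 0.0655 and 0.154 CPM in young MSCs without and 0.0834, 0.121, 0.0128 and 0.101 CPM with GDF11, and 0.294, 0.245, 0.391 and 0.437 CPM in senescent MSCs without and 0.4102, 0.295, 0.239 and 0.384 CPM with GDF11. The test gave 1.35 ± 0.41 without GDF11 and 2.03 ± 0.44 with it (adjusted p = 0.0126 and 0.0014), and the call without GDF11 was lost when replicate 2 or replicate 4 was left out of every group (adjusted p = 0.0580 and 0.0733). A share of 33.0% of its exonic sequence lies in readthrough genes on the same strand, so its counts are uncertain. FAS (ENSG00000026103.22, chromosome 10, 88953813 to 89029605, plus strand), the receptor for the Fas ligand, had 47.2, 39.5, 49.9 and 40.1 CPM in young MSCs without and 55.04, 43.2, 49.8 and 42.9 CPM with GDF11, and 95.3, 74.7, 91.6 and 89.8 CPM in senescent MSCs without and 99.9, 82.8, 89.3 and 84.1 CPM with GDF11. It rose by 0.99 ± 0.11 without GDF11 and 0.90 ± 0.11 with it (adjusted p = 4.35e-06 and 1.10e-05). EDA2R (ENSG00000131080.15, chromosome X, 66595637 to 66639298, minus strand), the receptor of ectodysplasin A2, had 15.98, 11.8, 14.2 and 12.7 CPM in young MSCs without and 17.9, 10.2, 13.5 and 12.3 CPM with GDF11, and 43.7, 27.1, 32.99 and 30.4 CPM in senescent MSCs without and 41.4, 30.7, 31.7 and 29.7 CPM with GDF11, and rose by 1.30 ± 0.18 without GDF11 and 1.31 ± 0.18 with it (adjusted p = 3.14e-05 and 2.84e-05). TNFRSF6B (ENSG00000243509.6, chromosome 20, 63696652 to 63698684, plus strand), a soluble decoy for the Fas ligand, was at 0 counts in all 16 libraries. All of its exonic sequence (100%) lies within the readthrough gene RTEL1-TNFRSF6B, which had 20 to 217 counts per library, so the zero is not a measurement of the gene alone.

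Of the 9 genes of apoptosis and mitochondria, 8 rose and 1 fell in both comparisons. CYFIP2 (ENSG00000055163.20, chromosome 5, 157266079 to 157395595, plus strand), a subunit of the WAVE actin complex, had 3.495, 2.71, 2.27 and 3.28 CPM in young MSCs without and 3.905, 2.96, 2.505 and 2.78 CPM with GDF11, and 46.5, 45.02, 41.4 and 28.1 CPM in senescent MSCs without and 40.4, 42.3, 41.7 and 28.4 CPM with GDF11. It rose by 3.77 ± 0.20 without GDF11 and 3.65 ± 0.20 with it (adjusted p = 2.82e-09 and 4.42e-09), the largest change among the members after GDF15. SPATA18 (ENSG00000163071.11, chromosome 4, 52051304 to 52097299, plus strand), a protein of mitochondrial quality control, had 19.9, 6.19, 8.41 and 6.07 CPM in young MSCs without and 19.1, 6.85, 6.902 and 6.23 CPM with GDF11, and 91.5, 43.02, 45.0 and 41.02 CPM in senescent MSCs without and 86.6, 42.4, 45.2 and 41.8 CPM with GDF11. It rose by 2.44 ± 0.47 without GDF11 and 2.47 ± 0.47 with it (adjusted p = 0.000685 and 0.000634). In SPATA18 replicate 1 was higher than each other replicate of its group in all 4 groups, yet the lowest MmC+ library was above the highest MmC- library. FDXR (ENSG00000161513.12, chromosome 17, 74862497 to 74873031, minus strand), the mitochondrial ferredoxin reductase, had 27.4, 22.5, 18.3 and 16.4 CPM in young MSCs without and 27.4, 24.2, 20.1 and 14.7 CPM with GDF11, and 82.7, 55.95, 52.2 and 37.4 CPM in senescent MSCs without and 86.8, 50.9, 47.8 and 36.7 CPM with GDF11, and rose by 1.43 ± 0.28 without GDF11 and 1.36 ± 0.28 with it (adjusted p = 0.000903 and 0.00124).

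TP53INP1 (ENSG00000164938.14, chromosome 8, 94925972 to 94949378, minus strand), a nuclear protein of autophagy and cell death, had 23.9, 12.3, 15.1 and 12.4 CPM in young MSCs without and 19.5, 12.9, 13.2 and 11.6 CPM with GDF11, and 44.4, 31.9, 31.7 and 28.8 CPM in senescent MSCs without and 44.9, 31.5, 29.9 and 29.5 CPM with GDF11. It rose by 1.10 ± 0.23 without GDF11 and 1.25 ± 0.23 with it (adjusted p = 0.00105 and 0.000405). AEN (ENSG00000181026.15, chromosome 15, 88621337 to 88632281, plus strand), an apoptosis-enhancing nuclease whose match lies just upstream of its start, had 34.5, 36.9, 33.8 and 40.3 CPM in young MSCs without and 44.1, 32.96, 31.1 and 36.04 CPM with GDF11, and 89.5, 92.05, 87.3 and 73.5 CPM in senescent MSCs without and 83.6, 87.3, 82.8 and 75.1 CPM with GDF11. It rose by 1.23 ± 0.11 without GDF11 and 1.19 ± 0.11 with it (adjusted p = 4.57e-07 and 6.92e-07). RPS27L (ENSG00000185088.14, chromosome 15, 63125872 to 63158021, minus strand), a relative of ribosomal protein S27, had 106, 102, 94.6 and 77.5 CPM in young MSCs without and 132, 75.4, 126 and 85.4 CPM with GDF11, and 208, 129.5, 163 and 135 CPM in senescent MSCs without and 217, 158, 155 and 129.5 CPM with GDF11. Its rise was 0.74 ± 0.20 without GDF11 and 0.65 ± 0.20 with it (adjusted p = 0.00743 and 0.0149). RPS27L did not overlap between groups without GDF11 and did with it. Its call was lost without GDF11 when replicate 3 was left out of every group (adjusted p = 0.0540), and with GDF11 when replicate 2 was left out of every group (0.0881) or the first MmC+/GDF11+ library was left out (0.0522).

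PERP (ENSG00000112378.12, chromosome 6, 138088505 to 138107419, minus strand), a membrane protein of desmosomes and of p53-driven death, ranged over 72.8 to 85.2 CPM in young MSCs without and 72.2 to 85.8 CPM with GDF11, and 116 to 178 CPM in senescent MSCs without and 116 to 185 CPM with GDF11. It rose by 0.78 ± 0.16 without GDF11 and 0.81 ± 0.16 with it (adjusted p = 0.000925 and 0.00065). PIDD1 (ENSG00000177595.19, chromosome 11, 799179 to 809753, minus strand), the death domain protein that activates caspase-2, ranged over 8.51 to 11.9 CPM in young MSCs without and 8.71 to 10.3 CPM with GDF11, and 17.1 to 22.4 CPM in senescent MSCs without and 17.4 to 19.02 CPM with GDF11, and rose by 0.95 ± 0.12 without GDF11 and 0.90 ± 0.12 with it (adjusted p = 1.06e-05 and 1.84e-05). TP53I3 (ENSG00000115129.14, chromosome 2, 24077433 to 24085861, minus strand), a quinone oxidoreductase, was the only member that fell, with 75.5, 87.5, 69.9 and 64.8 CPM in young MSCs without and 79.6, 70.5, 77.1 and 69.6 CPM with GDF11, and 64.1, 37.1, 38.8 and 35.96 CPM in senescent MSCs without and 68.2, 38.8, 37.9 and 36.3 CPM with GDF11. The log2 fold changes were -0.76 ± 0.21 without GDF11 and -0.71 ± 0.21 with it (adjusted p = 0.00701 and 0.00997). Replicate 1 changed less than the others, with a log2 ratio without GDF11 of -0.24 against -1.24 to -0.85. The call for TP53I3 was lost when replicate 2 or 3 was left out of every group without GDF11 (adjusted p = 0.0948 and 0.0580) and when replicate 2, 3 or 4 was left out with GDF11 (0.0626, 0.107 and 0.0646). Without replicate 1 in any group, TP53I3 fell by 0.99 without GDF11 (adjusted p = 2.81e-06).

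All 3 genes of metabolism and redox control rose. SESN1 and SESN2 code for sestrins, which restrain the growth kinase complex mTORC1. SESN1 (ENSG00000080546.13, chromosome 6, 108984309 to 109094846, minus strand) had 16.9, 10.2, 11.6 and 10.7 CPM in young MSCs without and 18.1, 10.7, 11.96 and 10.5 CPM with GDF11, and 43.4, 25.97, 28.1 and 28.5 CPM in senescent MSCs without and 43.3, 28.7, 28.3 and 29.04 CPM with GDF11. It rose by 1.35 ± 0.22 without GDF11 and 1.34 ± 0.22 with it (adjusted p = 0.000167 and 0.000179). SESN2 (ENSG00000130766.5, chromosome 1, 28259518 to 28282491, plus strand) had 44.3, 33.1, 29.03 and 24.9 CPM in young MSCs without and 45.3, 33.5, 30.3 and 26.3 CPM with GDF11, and 73.5, 97.9, 85.5 and 95.8 CPM in senescent MSCs without and 69.3, 87.4, 83.1 and 98.0 CPM with GDF11, and rose by 1.43 ± 0.18 without GDF11 and 1.32 ± 0.18 with it (adjusted p = 1.85e-05 and 3.61e-05). Replicate 1 of SESN1 was the highest library of every group, whereas replicate 1 of SESN2 was the highest in both MmC- groups and the lowest in both MmC+ groups. TIGAR (ENSG00000078237.7, chromosome 12, 4307763 to 4360028, plus strand), a phosphatase that lowers glycolysis, had 5.24, 3.25, 2.71 and 3.23 CPM in young MSCs without and 5.46, 3.02, 3.11 and 3.16 CPM with GDF11, and 14.8, 11.9, 11.02 and 9.83 CPM in senescent MSCs without and 14.4, 11.7, 11.02 and 10.3 CPM with GDF11. It rose by 1.72 ± 0.22 without GDF11 and 1.69 ± 0.22 with it (adjusted p = 1.95e-05 and 2.32e-05). The counts of TIGAR are uncertain, since 18.1% of its exons overlap another gene of that strand.

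The secreted member was GDF15 (ENSG00000130513.6, chromosome 19, 18374731 to 18389176, plus strand), a stress cytokine of the TGF-beta superfamily, to which GDF11 also belongs. GDF15 had 22.5, 11.4, 9.65 and 9.69 CPM in young MSCs without and 28.7, 13.2, 11.4 and 9.19 CPM with GDF11, and 271, 562, 469 and 344 CPM in senescent MSCs without and 276, 472, 444 and 346 CPM with GDF11. It rose by 4.95 ± 0.42 without GDF11 and 4.62 ± 0.41 with it (adjusted p = 5.48e-07 and 9.51e-07), the largest change of the 34 members, and the lowest MmC+ library (271 CPM) lay far above the highest MmC- library (28.7 CPM). On the linear scale the fitted change of GDF15 was 30.9-fold without GDF11 and 24.6-fold with it. Replicate 1 was again the highest in both young groups and the lowest in both senescent groups, with a log2 ratio without GDF11 of 3.59 against 5.15 to 5.62 in replicates 2 to 4. Without replicate 1 in any group, GDF15 rose by 5.48 without GDF11 and 5.23 with it.

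**Figure D2:**
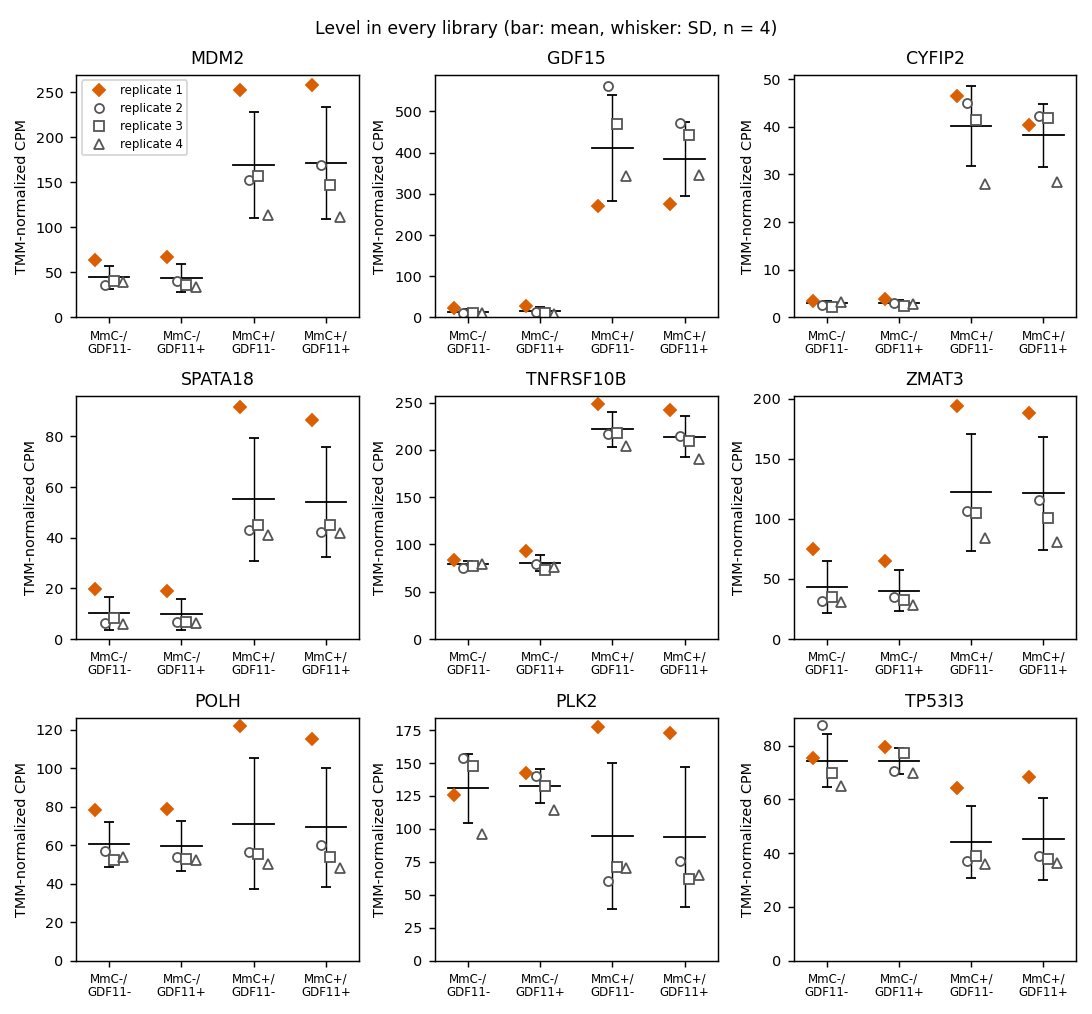
TMM-normalized CPM (vertical axis, linear from 0) of MDM2, GDF15, CYFIP2, SPATA18, TNFRSF10B, ZMAT3, POLH, PLK2 and TP53I3 in each of the 16 libraries, by group, with bars for the mean and whiskers for the SD (n = 4). Filled diamonds are replicate 1, which is the top point of every group for MDM2, SPATA18, ZMAT3 and POLH and the lowest point of both MmC+ groups for GDF15. The 9 genes shown were chosen after their values were seen.

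Members with and without a p53 match near their start were also counted apart. Of the 12 with a match, 10 rose in both comparisons and 2, PLK2 and CCNG1, did not pass. Of the 22 tested members without one, 18 rose, 1 fell and 3 did not pass in each comparison. The median log2 fold change without GDF11 was 1.45 with a match and 1.03 without one. In the comparison with GDF11 the medians were 1.37 and 1.12, and neither difference was tested. The 2 members with a match free of mismatches were ZMAT3, which rose, and PLK2, which did not pass. Per kilobase of exonic sequence, the highest level in MmC-/GDF11- was that of CCNG1, at 49.9 CPM per kilobase, followed by TP53I3 at 32.2 and PHLDA3 at 29.1, and the lowest above 0 was that of TNFRSF10C at 0.0864.

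Other genes of the pathway were counted from 2 further lists. Of 34 other p53 targets, 33 were tested, and 21 rose and 1 fell without GDF11 while 22 rose and 2 fell with it. For both lists the background is all genes tested, of which 22.9% rose and 22.4% fell without GDF11, and 23.4% and 23.3% with it. With the replicate number as a block, 26 rose and 4 fell without GDF11, and 24 rose and 3 fell with it. Without replicate 1 in any group, 22 rose and 4 fell in each comparison. With other libraries or replicate numbers left out, 18 to 22 rose and 0 to 3 fell without GDF11, and 17 to 23 rose and 1 to 2 fell with it. The 3 that fell came without MmC+/GDF11- replicate 1 and the 0 without replicate 3 of every group. With GDF11 only 1 fell without replicate 3 or 4 of every group, without replicate 1 or 3 of MmC-/GDF11+ alone, or without replicate 2, 3 or 4 of MmC+/GDF11+ alone. Their median log2 fold changes were 0.58 and 0.55, against 1.32 and 1.31 for the members. Of 18 upstream regulators and family members, 9 rose and 3 fell without GDF11, and 9 rose and 2 fell with it, with medians of 0.27 and 0.21. With libraries or replicate numbers left out, 6 to 9 of these rose and 1 to 3 fell without GDF11, and 5 to 9 rose and 1 to 2 fell with it. The low of 5 was reached without replicate 3 of every group, and the low of 6 without replicate 2 or 3 of every group or without MmC-/GDF11- replicate 2 or MmC+/GDF11- replicate 3 alone. Only 1 fell in each comparison without replicate 2, 3 or 4 of every group. The replicate block called 9 higher and 3 lower in each comparison, and limma-voom also called 3 lower without GDF11. Without GDF11 only 2 fell with RLE or upper-quartile scaling, other filters, counts thinned to the shallowest library, or DESeq2. The same 2 was reached with only the libraries compared, with or without the block. CDKN1A, the inhibitor of cyclin-dependent kinases through which p53 arrests the cell cycle, had 329.8, 210.5, 182 and 181 CPM in young MSCs without and 375, 207, 195 and 166 CPM with GDF11, and 2031, 1496, 1425 and 1075 CPM in senescent MSCs without and 2007, 1440.0, 1319 and 1040.0 CPM with GDF11. CDKN1A rose by 2.74 ± 0.30 without GDF11 and 2.62 ± 0.29 with it (adjusted p = 3.89e-06 and 5.80e-06).

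Of the pathway genes outside the member list, SULF2, an extracellular sulfatase of heparan sulfate, had the largest rise, 5.35 ± 0.64 without GDF11 and 5.58 ± 0.65 with it (adjusted p = 1.15e-05 and 9.20e-06). Its level in MmC-/GDF11- was 2.27 CPM in replicate 1 and 0.472 to 0.663 CPM in the others, and the rise was 6.14 without that library and 5.63 without replicate 1 of every group (adjusted p = 6.19e-06 and 3.33e-11). With GDF11 the rise was 6.19 without MmC-/GDF11+ replicate 1 and 5.70 without replicate 1 of every group (adjusted p = 1.58e-05 and 3.22e-11). TP73, a relative of p53 that was scarce in every library (0 to 0.396 CPM), rose by 3.58 ± 0.49 without GDF11 and 3.91 ± 0.57 with it (adjusted p = 3.16e-05 and 4.98e-05). Its rise without GDF11 was 4.21 without MmC-/GDF11- replicate 1 and 4.27 without replicate 1 of every group (adjusted p = 2.52e-05 and 2.16e-05), and that with GDF11 was 4.53 without replicate 4 of every group (adjusted p = 0.000909). In GLS2, a mitochondrial glutaminase, 82.8% of the exonic sequence lies in other genes on either strand. GLS2 rose by 3.46 ± 0.68 without GDF11 (adjusted p = 0.000672) and by 2.65 with it. It was also scarce in every library (0 to 0.309 CPM), with 0 to 2 counts in MmC-/GDF11- and 12 to 17 in MmC+/GDF11-. PGF, placental growth factor, rose by 2.94 ± 0.46 with GDF11 (adjusted p = 0.000119). Without GDF11 PGF was at 0.916 to 1.71 CPM in MmC- libraries and at 4.285 to 18.2 CPM in MmC+ libraries. With GDF11 the ranges were 1.12 to 1.58 CPM and 4.225 to 16.1 CPM. Replicate 1 was the lowest library of both MmC+ groups, at 4.285 CPM without GDF11 and 4.225 CPM with it. Among the calls that fell were CHEK1, a kinase of the DNA damage checkpoint, by 0.53 ± 0.14 without GDF11 and by 0.52 ± 0.14 with it (adjusted p = 0.00602 and 0.00628), and COP1, another ubiquitin ligase for p53, by 0.53 ± 0.15 without GDF11 and by 0.55 ± 0.15 with it (adjusted p = 0.00872 and 0.00655). The CHEK1 call was lost in both comparisons without replicate 4 of every group (adjusted p = 0.0520 and 0.0623). That of COP1 was lost without replicate 2 (adjusted p = 0.0946 and 0.0598) or replicate 3 (0.0807 and 0.0771).

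The second comparison set replicate 1 against the other replicates within each group. Replicate 1 was the highest library of its group in at least 3 of the 4 groups in 23 of the 34 members (67.6%), and in 19.1% of all genes tested. It was the lowest in at least 3 groups in none of the members and in 20.4% of all genes. In 18 members replicate 1 was the highest in all 4 groups, as in 9.34% of all genes. Group by group, replicate 1 was highest in 25 members in MmC-/GDF11-, in 26 in MmC-/GDF11+ and in 28 in each MmC+ group, where the shares of all genes were 29.9%, 26%, 35.1% and 37.3%. No other replicate number was highest in at least 3 groups for any member, and replicate 4 was the lowest in at least 3 groups for 12 members, against 12.9% of all genes. Each group holds 1 culture numbered 1, so these are descriptions without a test. With RLE and with upper-quartile scaling the count was again 23, and all 23 were shared with the TMM list.

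The median log2 ratio of replicate 1 to the mean of the others over the members was 0.36 and 0.42 in young MSCs without and with GDF11 and 0.48 and 0.52 in senescent MSCs without and with it, and over all genes it lay between -0.03 and 0.00. SPATA18 was at 19.9 CPM in replicate 1 of MmC-/GDF11- and at 6.07 to 8.41 CPM in the others. ZMAT3 was at 75.1 CPM there and at 30.6 to 35.3 CPM in the others, and MDM2 at 63.7 CPM against 36.1 to 40.1 CPM. The MmC response of replicate 1 also stood apart in some members, as given above for GDF15, TP53I3 and POLH. For SESN2 the log2 ratio of MmC+/GDF11- to MmC-/GDF11- was 0.73 in replicate 1 and 1.56 to 1.95 in the other replicates. The reverse held for PERP, at 1.25 in replicate 1 and 0.44 to 0.68 in the others. The TMM factors of replicate 1 were 0.916 and 0.920 in the MmC+ groups, and those of the other MmC+ libraries 0.995 to 1.04. The study names batch effects of a technical kind among its limitations, without saying which libraries they touched. What the libraries numbered 1 have in common is not given in the sources used here, and the part of a batch or of the scaling in these ratios was not tested.

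**Figure D3:**
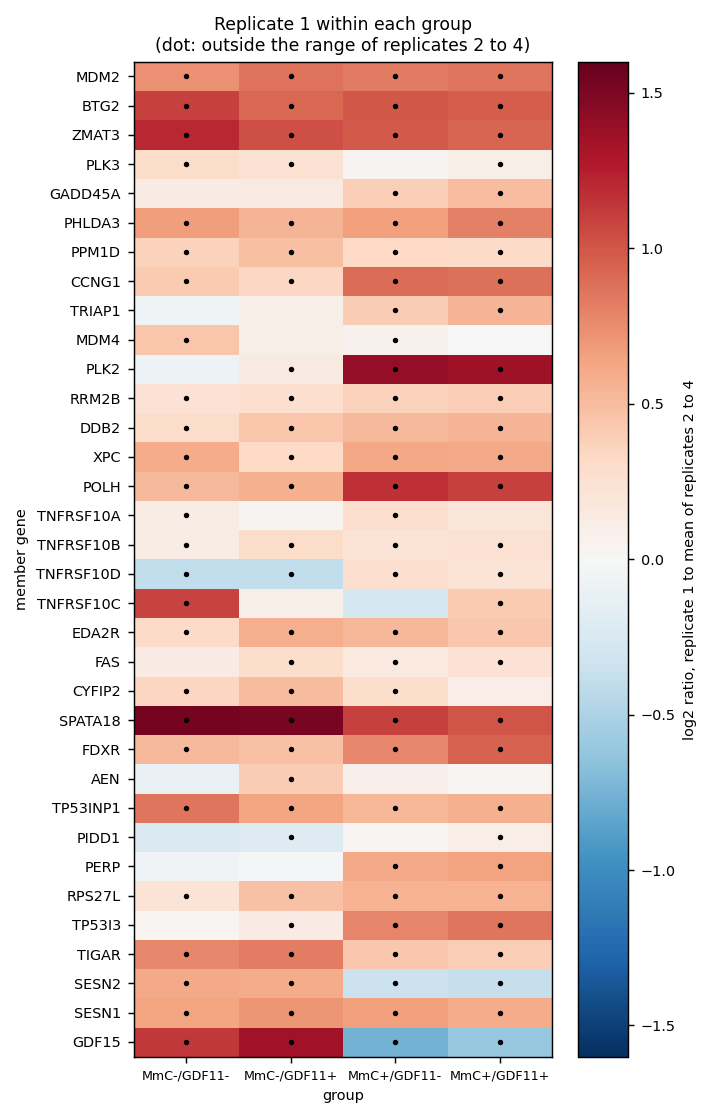
log2 ratio of replicate 1 to the mean of replicates 2 to 4 as colour (red higher, blue lower) for each of the 34 tested p53 genes (rows) in each of the 4 groups (columns). Dots mark cells where replicate 1 lies outside the range of replicates 2 to 4. The medians of the columns lie between 0.36 and 0.52, and GDF15 and SESN2 are red in the MmC- groups and blue in the MmC+ groups.

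The third comparison asked whether GDF11 changed the p53 genes in young or in senescent MSCs. In young MSCs no member passed the test, as none of the 19103 genes did (0%), and no member had an unadjusted p under 0.05, against 226 of all genes (1.18%). The smallest unadjusted p among members was 0.139, for TNFRSF10C, with a log2 fold change of -0.74 (95% interval -1.74 to 0.27). Over the members the median was -0.01. The 95% interval lay within a 1.5-fold change in either direction for 23 of the 34 members and within a 2-fold change for 32. GDF15 had 0.23 (95% interval -0.54 to 1.00), MDM2 -0.02 (95% interval -0.65 to 0.62), and SPATA18 -0.06 (95% interval -1.02 to 0.91). Every member overlapped between MmC-/GDF11+ and MmC-/GDF11- libraries, as did all but 0.89% of all genes.

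In senescent MSCs GDF11 likewise gave no call among the members or all genes (0%), and 96 of all genes (0.503%) and none of the members had an unadjusted p under 0.05. The smallest unadjusted p among members was 0.454. The members' median was -0.02, and their intervals lay within 1.5-fold for 25 and within 2-fold for all 34. GDF15 had -0.10 (95% interval -0.86 to 0.66), MDM2 0.02 (95% interval -0.61 to 0.65), and TNFRSF10B -0.05 (95% interval -0.25 to 0.15). Every member overlapped between MmC+/GDF11+ and MmC+/GDF11-, as did all but 0.503% of all genes. Changes smaller than these intervals were not detectable in this fit, with 4 libraries a group and no term for replicate. For MDM2 in senescent MSCs the log2 ratios within replicate numbers 1 to 4 were 0.03, 0.15, -0.10 and -0.04. Intervals from the replicate block are not given here.

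**Figure D4:**
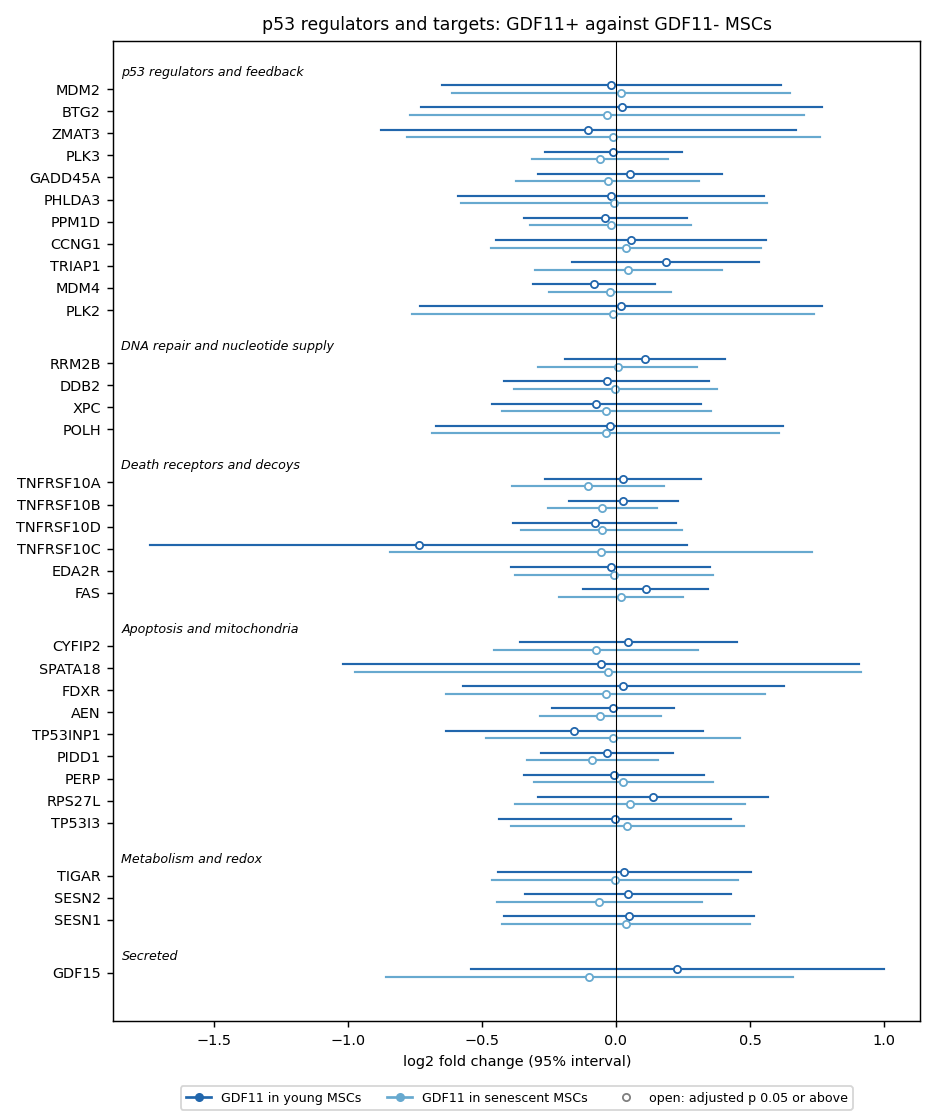
log2 fold change of GDF11+ against GDF11- libraries (horizontal axis) for the 34 tested p53 genes in young and in senescent MSCs, with 95% intervals. All points are open, which marks an adjusted p of 0.05 or above, and TNFRSF10C in young MSCs lies farthest from 0 at -0.74.

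The interaction asked whether the response to MmC differed with GDF11. No member and none of all genes passed (0%), 172 of all genes (0.9%) and no member had an unadjusted p under 0.05, and the smallest among members was 0.274, for TNFRSF10C. The difference of the MmC changes (with minus without GDF11) was 0.68 (95% interval -0.59 to 1.95) for TNFRSF10C and -0.33 (95% interval -1.41 to 0.75) for GDF15. For MDM2 it was 0.04 (95% interval -0.86 to 0.93). The intervals lay within 1.5-fold for 14 members and within 2-fold for 28. For the GDF11 comparisons and the interaction, limma-voom, DESeq2 and a fit with the replicate number as a block also called none of the 34 members. Across all genes DESeq2 called 1 for GDF11 in young MSCs and 0 in the other 2 comparisons, and limma-voom called 0 in all 3.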

How the data were processed

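RNA-seq counts of 16 libraries, 4 per group, were analysed, with groups and replicate numbers taken from the sample labels. The authors aligned the reads to GRCh38/hg38 with HISAT2 2.2.1, counted them with featureCounts 2.0.1 on GENCODE version 38 and deposited the raw counts per gene. The libraries were made with a directional kit. The settings for strand, read pairs and multiple alignments are not given in the sources used here.

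From the counts as deposited, genes passed filterByExpr with a minimum count of 10 and a minimum total of 15. After TMM scaling, edgeR 4.0.16 (R 4.3.3) fitted 1 mean per group to all 16 libraries by the robust quasi-likelihood method, with no term for replicate. Adjusted p-values cover 19103 genes at a threshold of 0.05. The script was tested on simulated data. Members and lists were chosen with earlier results of these data known. Every member is named. Values in every library are given for MDM2 and MDM4, for members called in both MmC comparisons with an absolute log2 fold change of at least 1 in either, for members called lower, and for members whose replicate 1 lies outside the range of the others on 1 side in at least 3 groups. Of other genes, CDKN1A and the 3 highest and 3 lowest calls of the 2 lists per MmC comparison are named, except 1 gene that is not reported here and is left out of the counts of its list. Exon overlaps and positions came from GENCODE version 44 on hg38, a later release, in which 186 identifiers had no match.

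Whether same-numbered libraries deviate together was checked by the correlation of their deviations from the group means across genes. The correlations were 0.113 to 0.368 for MmC without GDF11 and 0.0293 to 0.311 for MmC with it. They were 0.0982 to 0.5035 for GDF11 in young MSCs and 0.448 to 0.818 for GDF11 in senescent MSCs. All were positive, but they do not settle whether the numbers pair cultures, which neither the labels nor the paper state. The main fit therefore held no term for replicate, and a replicate block was run as an alternative. Alternatives were RLE and upper-quartile scaling, other filters, only the libraries compared, thinning, a replicate block, limma 3.58.1 (voom), DESeq2 1.42.0, members with overlapping exons left out, and libraries left out. A replicate block with only the libraries compared was added after seeing the data.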

Additional observations from a re-analysis of the deposited data

Results flagged for a closer look

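In 27 of the 136 sets of 4 libraries (34 members in 4 groups) 1 library stood apart from the other 3, by a gap whose share of the whole range passed Dixon's 95% critical value. That is 19.9% of the sets, against 8.15% of the 76412 sets of all genes tested. Chance flags about 1 in 20 sets that are independent, which these are not, since all genes share the same 16 libraries. Of the 27, 24 (17.6% of the sets, against 3.45% over all genes) had replicate 1 as the highest library, over 15 members, and 3 had replicate 4 as the lowest. No set of a member had replicate 1 as the lowest, against 1.51% over all genes. These shares are descriptions without a test.

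In MmC-/GDF11-, replicate 1 was at 63.7 CPM for MDM2 (36.1 to 40.1 CPM in the other 3), 22.5 CPM for GDF15 (9.65 to 11.4 CPM in the other 3) and 75.1 CPM for ZMAT3 (30.6 to 35.3 CPM in the other 3). It stood there at 19.9 CPM for SPATA18 (6.07 to 8.41 CPM in the other 3).

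In MmC-/GDF11+, replicate 1 was at 78.7 CPM for POLH (52.4 to 53.6 CPM in the other 3), 5.46 CPM for TIGAR (3.02 to 3.16 CPM in the other 3) and 19.1 CPM for SPATA18 (6.23 to 6.90 CPM in the other 3).

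In MmC+/GDF11-, replicate 1 was at 43.4 CPM for SESN1 (25.97 to 28.5 CPM in the other 3), 162 CPM for XPC (100.4 to 109.7 CPM in the other 3) and 122 CPM for POLH (50.2 to 56.4 CPM in the other 3). It stood there at 64.1 CPM for TP53I3 (35.96 to 38.8 CPM in the other 3), 36.3 CPM for BTG2 (16.6 to 19.5 CPM in the other 3) and 178 CPM for PLK2 (60.1 to 70.7 CPM in the other 3). The same library reached 327 CPM for CCNG1 (159 to 186 CPM in the other 3), 91.5 CPM for SPATA18 (41.0 to 45.0 CPM in the other 3) and 178 CPM for PERP (116 to 118 CPM in the other 3).

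In MmC+/GDF11+, replicate 1 was at 43.3 CPM for SESN1 (28.3 to 29.0 CPM in the other 3), 157 CPM for XPC (102 to 105 CPM in the other 3) and 68.2 CPM for TP53I3 (36.3 to 38.8 CPM in the other 3). It stood there at 44.9 CPM for TP53INP1 (29.5 to 31.5 CPM in the other 3), 173 CPM for PLK2 (61.9 to 75.9 CPM in the other 3) and 86.6 CPM for SPATA18 (41.8 to 45.2 CPM in the other 3). The same library reached 41.4 CPM for EDA2R (29.7 to 31.7 CPM in the other 3) and 185 CPM for PERP (116 to 121 CPM in the other 3).

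Replicate 4 was the lowest at 31.1 CPM for PLK3 in MmC+/GDF11+ (others 37.0 to 37.5 CPM) and 28.4 CPM for CYFIP2 in MmC+/GDF11+ (others 40.4 to 42.3 CPM), and at 40.7 CPM for GADD45A in MmC-/GDF11- (others 56.9 to 58.5 CPM). The libraries numbered 1 come from 4 groups, and what they share beyond the number was not tested.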

How the results depend on the processing

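Of 5025 results of single members under the alternatives run, 5002 kept their side of the threshold, 13 lost the call and 10 gained it. All 1738 of the called results kept their direction, and 436 of the 3287 not called changed sign. Of the 35 members, 16 have exons that overlap another gene on either strand, among them TP53I3. With these left out, 15 members rose and 0 fell in each MmC comparison. With libraries or replicate numbers left out, the members that rose numbered 25 to 29 without GDF11 and 27 to 29 with it, and those that fell 0 to 2 in both. Leaving out replicate 1, or its MmC+ library alone, added the fall of PLK2 (without MmC+/GDF11- replicate 1 by 0.96, adjusted p = 0.0179), and TP53I3 was lost as given in the report. All genes that rose then numbered 2885 to 5059 without GDF11 and 2973 to 5098 with it, and those that fell 2605 to 4945 and 2532 to 5066, each lowest without replicate 3. For GDF11 in young MSCs, 0 to 1 genes rose with libraries left out, 1 with DESeq2, and 1 gene fell with the replicate block and only the libraries compared. The replicate block called 30 members in each MmC comparison in place of 29, adding CCNG1, and none for GDF11. It raised the genes called for MmC from 8655 to 11066 without GDF11 and from 8926 to 11267 with it, and changed no other call of a member. The cause of these shifts was not tested. Few counts limit TNFRSF10C, and 4 libraries a group limit the GDF11 comparisons, whose intervals come from the fit without a term for replicate.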
